A study of Mus musculus with 17 samples.

Results

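The accessible chromatin described here lies at 9 genes that make prostaglandins and leukotrienes, namely Pla2g4a, Ptgs1, Ptgs2, Ptges, Ptges2, Alox5, Alox5ap, Lta4h and Ltc4s. Each was followed over the LPS response of bone marrow-derived macrophages (BMDMs) of wild-type (WT) mice and of mice without the nuclear receptor Nur77 (KO), which Nr4a1 encodes. All peaks within 50 kb of the gene bodies were taken from the 17 peak lists, and 64 of the 34158 consensus sites of the series fell in these windows. The windows held 1441 of the 808470 deposited peak intervals. A consensus site is a stretch where the peaks of at least 2 lists overlapped, so that a peak was seen there is a condition of the choice and not a result. The 9 genes were chosen by their function, with the rank differences of these same lists after LPS and between genotypes known.

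ATAC-seq marks open DNA by the insertions of the Tn5 transposase, and the study used it to ask how LPS and the loss of Nur77 change chromatin accessibility in macrophages. The 6 groups were WT and KO BMDMs before LPS (0 h) and after 1 h or 18 h with LPS at 100 ng/ml, with 3 lists each except for WT at 1 h, which had 2, the first of them labelled replicate 1-2. All came from male C57Bl6/J mice aged 6 to 12 weeks, and marrow cells were grown for 7 days in L929-conditioned medium. The KO was whole-body, made by CMV-driven Cre on a floxed Nr4a1 allele with the Cre then bred out, littermates served as WT, and the labels give the KO genotype as cre.

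Prostaglandins and leukotrienes are lipid mediators made from arachidonic acid. The cytosolic phospholipase A2 encoded by Pla2g4a frees the fatty acid from membranes. The cyclooxygenases COX-1 (Ptgs1) and COX-2 (Ptgs2) turn it into prostaglandin H2, from which the synthases of Ptges and Ptges2 make prostaglandin E2. In the other branch 5-lipoxygenase (Alox5), with its helper protein FLAP (Alox5ap), makes leukotriene A4, which is converted to leukotriene B4 by Lta4h or to leukotriene C4 by Ltc4s. In macrophages COX-2 and the microsomal synthase of Ptges are the textbook LPS-induced members, while COX-1 is taken to be constitutive.

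The measure was the rank of a peak inside its own list, with rank 1 the peak of smallest p-value, because the lists differed 25.5-fold in depth. The best 24389 peaks of every list, as many as the shortest list holds, entered the comparisons. The log2 rank score of a site was log2 of 24390 over its rank, and it was 0 where the site had no peak among those. A difference of 1 in the score means a rank number 2 times smaller. Scores were compared with limma, and adjusted p-values cover all 34158 sites. A site is called changed at an adjusted p under 0.05. "Rose" and "fell" below refer to such calls, and a rise means a better place in the list. A score of 0 stands for any place beyond the kept peaks, so where lists of the lower group score 0 and all lists of the higher group kept the site, the difference is a lower bound, also where "at least" is not written.

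The stretches of sequence that the results below turn on are printed first. They are the 250 bases before the start of Ptgs2 and 201 bases around the summits of 8 sites named below, read 5′ to 3′ on the strand of the gene from the RefSeq GRCm38.p6 assembly, which is the mm10 build of the lists. Capitals mark matches on either strand to AP-1 (TGACTCA), CRE (TGACGTCA), C/EBP (TTGCNNAA or TTACNNAA), PU.1 (GAGGAAGT), NBRE (AAAGGTCA, the Nur77 monomer motif), ISRE (GAAANNGAAA), NF-kB and CTCF motifs.
Ptgs2 promoter, chr1:150099781-150100030: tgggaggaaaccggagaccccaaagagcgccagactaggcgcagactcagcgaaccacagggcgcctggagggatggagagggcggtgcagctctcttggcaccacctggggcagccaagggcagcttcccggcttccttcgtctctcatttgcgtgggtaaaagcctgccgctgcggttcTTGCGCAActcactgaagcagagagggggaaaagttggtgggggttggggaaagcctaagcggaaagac
Ptgs2 downstream site, chr1:150151449-150151649: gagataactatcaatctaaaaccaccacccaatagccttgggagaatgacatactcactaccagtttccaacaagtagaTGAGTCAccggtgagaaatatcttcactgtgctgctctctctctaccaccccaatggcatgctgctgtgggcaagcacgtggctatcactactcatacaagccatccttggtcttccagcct
Ptges 22.1 kb upstream site, chr2:30925272-30925472: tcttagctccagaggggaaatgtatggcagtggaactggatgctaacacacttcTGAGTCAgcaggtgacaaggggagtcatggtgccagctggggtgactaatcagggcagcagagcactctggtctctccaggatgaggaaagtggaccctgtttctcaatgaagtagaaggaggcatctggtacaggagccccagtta
Ptges 24.2 kb upstream site, chr2:30927423-30927623: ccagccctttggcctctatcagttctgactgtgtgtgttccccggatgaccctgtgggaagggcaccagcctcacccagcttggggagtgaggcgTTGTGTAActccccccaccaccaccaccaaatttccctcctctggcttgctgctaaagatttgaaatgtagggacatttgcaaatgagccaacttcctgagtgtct
Ptges 10.0 kb upstream site, chr2:30913232-30913432: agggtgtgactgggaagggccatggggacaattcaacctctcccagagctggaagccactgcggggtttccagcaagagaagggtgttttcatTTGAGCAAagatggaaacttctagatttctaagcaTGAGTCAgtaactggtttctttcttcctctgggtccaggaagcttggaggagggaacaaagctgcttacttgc
Pla2g4a intron site, chr1:149841021-149841221: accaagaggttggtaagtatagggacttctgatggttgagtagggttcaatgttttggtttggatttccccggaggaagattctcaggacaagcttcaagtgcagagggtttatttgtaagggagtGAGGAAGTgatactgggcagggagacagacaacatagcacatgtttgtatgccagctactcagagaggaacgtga
Alox5 intron site, chr6:116455902-116456102: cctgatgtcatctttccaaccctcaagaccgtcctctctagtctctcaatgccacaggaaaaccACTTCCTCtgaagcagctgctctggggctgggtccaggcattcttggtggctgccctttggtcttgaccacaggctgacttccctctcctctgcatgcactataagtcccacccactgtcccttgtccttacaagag
Alox5ap upstream site, chr5:149246071-149246271: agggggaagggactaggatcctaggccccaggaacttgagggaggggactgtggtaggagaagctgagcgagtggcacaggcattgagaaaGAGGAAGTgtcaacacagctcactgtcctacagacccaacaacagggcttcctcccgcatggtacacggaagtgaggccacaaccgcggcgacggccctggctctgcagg
Lta4h upstream site, chr10:93432646-93432846: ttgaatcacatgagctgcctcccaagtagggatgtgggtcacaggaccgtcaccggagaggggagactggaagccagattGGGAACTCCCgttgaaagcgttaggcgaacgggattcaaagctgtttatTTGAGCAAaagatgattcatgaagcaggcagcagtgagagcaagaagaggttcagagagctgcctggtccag

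AP-1 letters stood in the Ptgs2 downstream site and in the 22.1 kb and 10.0 kb upstream sites of Ptges. PU.1 letters stood in the Pla2g4a, Alox5 and Alox5ap sites. The Lta4h site held an NF-kB and a C/EBP match, while the Ptgs2 promoter stretch and the 24.2 kb upstream site of Ptges held a C/EBP match each. Within 100 bp of the summit, AP-1 letters were found at 11 of the 64 sites (17.2%, against 16.2% of all 34158 sites), and each of the 11 was away from promoters. They were at 5 of the 14 sites that rose at 1 h (35.7%, against 30.5% of all sites that rose), at 1 of the 11 that fell at 1 h (9.09%, against 7.13%), at 3 of the 13 that rose at 18 h (23.1%, against 22.5%) and at 0 of the 15 that fell at 18 h (against 13.1%). C/EBP letters were at 10 of the 64 sites (15.6%, against 16.9%). By the same order of calls they were at 4 of 14 (28.6%, against 19.0%), 1 of 11 (9.09%, against 15.4%), 5 of 13 (38.5%, against 28.0%) and 2 of 15 (13.3%, against 14.1%). PU.1 letters were at 7 (10.9%, against 7.71%). NF-kB and CTCF letters were at 4 sites each (6.25%, against 4.82% and 2.80%), and ISRE letters were at 2 (3.12%, against 3.64%). NBRE and CRE letters were at 0 of the 64 sites, against 1.05% and 1.22% of all sites. These shares are descriptions of the letters and were not tested.

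The label of macrophages was checked against markers. Promoter peaks of all 8 macrophage markers were in 12 to 17 of the 17 matched-number lists, with Adgre1, Itgam, Spi1 and Mertk in all. Csf1r and Cd68 were in 12 lists each, and the lists without them took in whole groups, with Csf1r in 0 of 3 WT lists at 0 h and Cd68 in 0 of 3 WT lists at 18 h. Of the markers of other cell types reported here, 4 had a promoter peak in some list. These were Cd3d in 17 lists, Col1a1 in 14, Camp in 10 and Pdgfra in 1, while Cd3e, Cd3g, Cd79a, Pax5, Mpo, Elane, Ly6g, Cpa3, Epcam and Cdh1 had none. Camp, which encodes a neutrophil granule peptide, was in 0 of 6 lists at 0 h and in 10 of 11 with LPS, and so moved with LPS, and its part in the results below was not tested. The list labelled WT 1 h replicate 1-2 was the shallowest. KO 18 h replicate 1 stood apart for its narrow peaks, with a median width of 135 bp.

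Of the 64 sites, 7 lay at a promoter of 1 of the 9 genes, 11 at promoters of neighbouring genes and 46 elsewhere. A promoter site had a peak summit of at least 1 list within 1 kb of a protein-coding start. In 16 of them the best 24389 peaks of all 17 lists held a peak, and 8 were seen at a single LPS time. At 1 h against 0 h 14 sites rose and 11 fell, 25 of 64 (39.1%), beside 28.1% of all consensus sites. At 18 h against 0 h 13 rose and 15 fell, 28 of 64 (43.8%), beside 23.6% of all sites. Between 1 h and 18 h 8 rose and 11 fell, 19 of 64 (29.7%), beside 28.9%. Without WT 1 h replicate 1-2 the 3 counts were 23, 28 and 19 (beside 23.0%, 24.3% and 24.1% of all sites), and without KO 18 h replicate 1 they were 29, 30 and 23 (beside 34.2%, 27.4% and 35.1%). With peaks over at least 50% of a site required, they were 13 (20.3%, beside 20.6%), 12 (18.8%, beside 12.4%) and 6 (9.38%, beside 9.01%). The median difference of the 64 sites was -0.0248 at 1 h and -0.0261 at 18 h, beside -0.0241 and 0 for all sites. Depth also moved with LPS, with a median of 5.62 background reads per kb at 0 h, 1.22 at 1 h and 3.19 at 18 h, and with log2 depth as a covariate 18, 28 and 18 sites were called in the 3 comparisons (beside 16.7%, 23.3% and 20% of all sites). In such bulk cultures, fewer cells with a site open and a site less open in each cell cannot be told apart. The site just inside the 50 kb window, 49785 bp from the Ptges gene body, had a difference of -0.36 ± 0.113 at 18 h, and the next site, 51504 bp away, one of -0.02 ± 0.66.

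**Figure D1:**
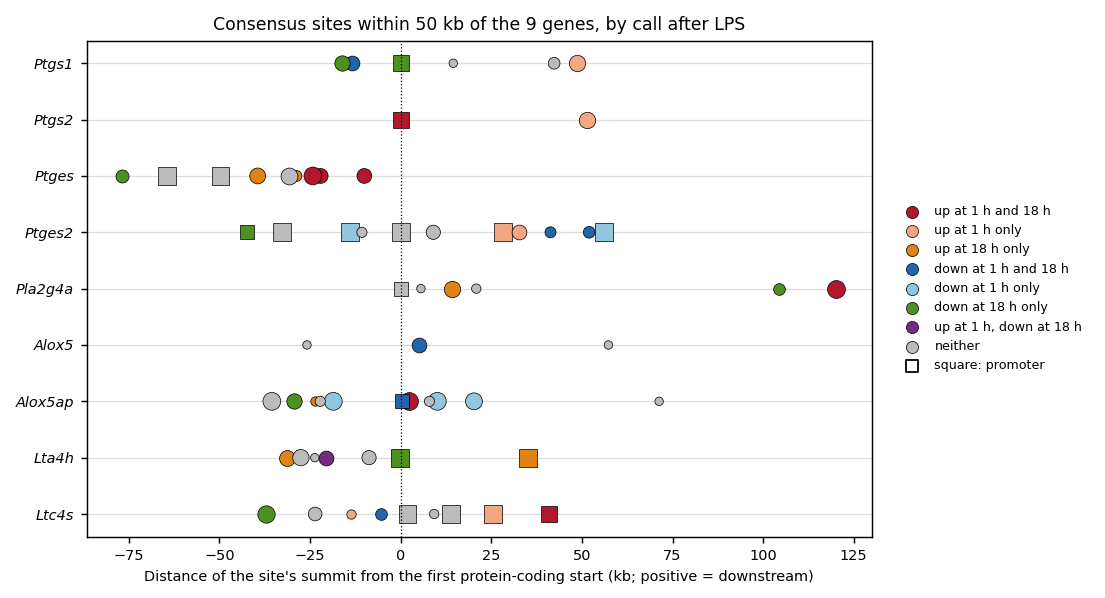
The 64 consensus sites by gene (y axis) and by the distance in kb of their summit from the first protein-coding start (x axis), coloured by the calls at 1 h and 18 h against 0 h. Squares are promoters, including those of neighbours, and larger points were found in more of the 17 lists. Ptges has 3 sites called up at both times between 10.0 and 24.2 kb upstream of its start, while Alox5 has a single called site, down at both times.

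Pla2g4a, the phospholipase at the head of the pathway, had calls inside the gene body and none at its promoter. The intron site 120.2 kb into the gene (chr1:149840370-149842579) ranked 10297, 12469 and 10667 in WT at 0 h, 8263 and 5192 at 1 h and 8232, 7738 and 6804 at 18 h. The KO ranks there were 9064, 12838 and 9859 at 0 h, 2600, 5574 and 4744 at 1 h and 3026, 6227 and 3707 at 18 h. The KO lists at 1 h and 18 h all stood ahead of those at 0 h, and so did the WT lists. The rise was 1.06 ± 0.248 (SE) at 1 h (adjusted p = 0.00398, limma) and 0.95 ± 0.234 at 18 h (adjusted p = 0.00659). Another intron site, 14.2 kb into the gene (chr1:149946487-149948548), ranked 26685, 20965 and 21530 in WT at 0 h, 11828 and 10798 at 1 h and 11059, 11686 and 13754 at 18 h. In KO it ranked 17150 and 22197 (no peak in 1 list) at 0 h, 15633, 22863 and 12975 at 1 h and 28007, 10733 and 7443 at 18 h. It rose by 0.81 ± 0.227 at 18 h (adjusted p = 0.0145), while its difference at 1 h was not called, and a KO list at 18 h lay behind all the WT lists at 0 h. An intron site 104.4 kb into the gene, beyond the kept peaks in every list at 18 h, fell by 0.25 ± 0.0699 at 18 h (adjusted p = 0.0142). The promoter (chr1:149960408-149961692) was a weak peak, at rank 24389 or better in 7 of 17 lists. Its differences were 0.04 ± 0.0532 at 1 h and 0.08 ± 0.0501 at 18 h, neither of them called. With peaks over at least 50% of the site required, the differences at 120.2 kb were 0.66 and 0.74 and both calls were lost (adjusted p = 0.466 and 0.449), and the exact permutation test lost the one at 14.2 kb (adjusted p = 0.0775).

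At Ptgs1, which encodes COX-1, 3 of the 6 sites fell at 18 h and 0 rose. The site 13.4 kb upstream (chr2:36216193-36217878) ranked 10113, 11393 and 9219 in WT at 0 h, 17414 and 27028 at 1 h and 21200, 24264 and 25423 at 18 h. At 0 h the KO ranks were 11011, 9322 and 6079, followed by 23214, 13130 and 25453 at 1 h and 28007, 20443 and 31258 at 18 h. It fell by at least 1.10 ± 0.190 at 1 h (adjusted p = 0.000316) and by at least 1.31 ± 0.179 at 18 h (adjusted p = 5.08e-05), with every list after LPS behind every list at 0 h. Of the 11 LPS lists, 6 did not keep it and score 0, 5 of them with a rank beyond 24389 and 1 tied across the last place. The promoter (chr2:36230004-36231257) ranked 13495, 16186 and 16172 in WT at 0 h, 6959 and 13626 at 1 h and 27268, 35207 and 32438 at 18 h. Ranks in the KO lists were 13867, 13392 and 20689 at 0 h, 15041, 19586 and 21740 at 1 h and 17260, 23273 and 22025 at 18 h. No WT list at 18 h kept it among the best 24389, and the KO lists at 18 h overlapped those at 0 h. It fell by 0.55 ± 0.171 at 18 h (adjusted p = 0.0254), and at 1 h its difference was 0.20 ± 0.181 (adjusted p = 0.457). The 18 h call was lost without any one of 7 lists, with adjusted p up to 0.0659, with peaks over 50% of the site (adjusted p = 0.0536) and under the exact permutation test (adjusted p = 0.0562). With the 10000 best peaks the difference at 13.4 kb was -0.16 at both times, and neither was called (adjusted p = 0.229 and 0.244). A site 16.2 kb upstream also fell at 18 h, by 0.46 ± 0.139 (adjusted p = 0.0218). A site 48.6 kb downstream of the start rose by 0.70 ± 0.203 at 1 h (adjusted p = 0.0159) and fell by 0.75 ± 0.203 from 1 h to 18 h (adjusted p = 0.00973). Without the list WT 1 h replicate 3, the first of these had an adjusted p of 0.0650. With the 10000 best peaks these differences were 0.04 and 0.0071, and both calls were lost (adjusted p = 0.598 and 0.956).

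Ptgs2 had few sites, and both rose with LPS. Its promoter was called up at 1 h and at 18 h, and a site 51.5 kb downstream of the start rose at 1 h alone. The promoter (chr1:150099494-150100512) ranked 30788, 24147 and 18614 in WT at 0 h, 8263 and 12373 at 1 h and 14583, 13207 and 12652 at 18 h. The KO ranks there were 22012, 26882 and 18588 at 0 h, 15041, 7527 and 12975 at 1 h and 13081, 17942 and 5703 at 18 h. Every LPS list ranked the promoter ahead of every list at 0 h, in both genotypes together. The difference was 1.03 ± 0.256 (adjusted p = 0.00598) at 1 h and 0.84 ± 0.241 (adjusted p = 0.0163) at 18 h, and between 1 h and 18 h it was -0.18 ± 0.256 (adjusted p = 0.631). With log2 depth as a covariate the 1 h difference was 0.81 and was not called (adjusted p = 0.109). With the 10000 best peaks the differences at 1 h and 18 h were both 0.14 (adjusted p = 0.467 and 0.483), and with peaks over 50% of the site they were 0.81 and 0.76 (adjusted p = 0.0826 and 0.115), with no call. The downstream site (chr1:150151033-150151888), which lies in no gene, ranked 20425, 21810 and 20713 in WT at 0 h, 14418 and 4763 at 1 h and 16879, 25931 and 26574 at 18 h. In KO it ranked 18882 and 22197 (no peak in 1 list) at 0 h, 4404, 4525 and 7176 at 1 h and 11542, 20443 and 9746 at 18 h. All 1 h lists stood ahead of all 0 h lists, and the 18 h lists of WT overlapped those at 0 h. The site rose by 1.70 ± 0.262 at 1 h (adjusted p = 0.000112) and fell by 1.36 ± 0.262 from 1 h to 18 h (adjusted p = 0.000788). With peaks over 50% of the site the differences were 1.17 and -1.21, and both calls were lost (adjusted p = 0.0611 and 0.0892).

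Among the 64 sites, the largest LPS differences were at Ptges, the inducible prostaglandin E synthase. Its single protein-coding start (chr2:30903297) had no peak summit within 1 kb in any of the 17 deposited lists, with all peaks counted. The 3 sites that rose at both times lay upstream of it, at 10.0, 22.1 and 24.2 kb, inside the span of a non-coding Ptges transcript of the GENCODE annotation that extends the gene body to chr2:30929863. The site 22.1 kb upstream (chr2:30924759-30926101) ranked 36284, 33131 and 38846 in WT at 0 h, 2609 and 3568 at 1 h and 4453, 4700 and 2488 at 18 h. At 0 h the KO ranks were 44975 (no peak in 2 lists), followed by 5169, 2183 and 5250 at 1 h and 1586, 3038 and 2411 at 18 h. None of the 6 lists at 0 h had it among their best 24389 peaks, and all 11 lists after LPS had it among their best 5250. The difference was 2.82 ± 0.268 at 1 h (adjusted p = 7.24e-07) and 3.07 ± 0.252 at 18 h (adjusted p = 6.15e-07). Since the site was beyond the kept peaks at 0 h, both values are measured from rank 24390 and are lower bounds on this scale. With peaks over 50% of the site the 1 h difference was 1.07 and its call was lost (adjusted p = 0.240).

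The Ptges site 10.0 kb upstream (chr2:30912752-30913960) had no peak in any WT list at 0 h, and ranked 4204 and 9052 at 1 h and 18991, 14418 and 18409 at 18 h. No KO list had it at 0 h, and the others ranked it 4476, 7527 and 3703 at 1 h and 10273, 11750 and 9082 at 18 h. It was absent from all deposited peaks of the 6 lists at 0 h and present in all 11 lists with LPS. Its rise was at least 2.14 ± 0.212 at 1 h (adjusted p = 1.12e-06) and at least 0.88 ± 0.200 at 18 h (adjusted p = 0.00382), and it fell by 1.26 ± 0.212 between them (adjusted p = 0.000233). The site 24.2 kb upstream (chr2:30926644-30930308) was already open, and ranked 5743, 5894 and 6348 in WT at 0 h, 3059 and 1258 at 1 h and 1394, 1885 and 2594 at 18 h. The KO ranks there were 6636, 5494 and 6560 at 0 h, 1412, 827 and 614 at 1 h and 1321, 883 and 757 at 18 h. The groups at 0 h and after LPS did not overlap. The rise was 2.20 ± 0.309 at 1 h (adjusted p = 4.35e-05) and 2.18 ± 0.292 at 18 h (adjusted p = 4.26e-05). With peaks over 50% of the site, the 18 h difference at 10.0 kb was 0.19 (adjusted p = 0.821) and the fall there was not called (adjusted p = 0.132). The 18 h difference at 24.2 kb was larger in that setting, at 2.48, and was not called either (adjusted p = 0.0645). With the 10000 best peaks the 18 h difference at 10.0 kb was 0.023, with no call. Further upstream, and outside the gene body, a site at 39.5 kb rose by 0.41 ± 0.134 at 18 h (adjusted p = 0.0341), and a site at 76.8 kb, beyond the kept peaks in every list at 18 h, fell by 0.36 ± 0.113 (adjusted p = 0.0291). The site at 28.8 kb was called up at 18 h over both genotypes, by 0.54 ± 0.139 (adjusted p = 0.00845; exact permutation p = 0.1, two-sided, unadjusted), but its score was above 0 at 18 h in KO alone. The KO lists at 18 h ranked it 7299, 15965 and 13105, and the WT lists 26689, 27784 and 30765, beyond the kept peaks, and no list at 0 h kept it. The KO minus WT difference of the 18 h response was 1.08 ± 0.277 there and was not called (adjusted p = 0.342). The promoters of the neighbours Tor1b and Tor1a, 49.6 and 64.5 kb upstream, were called in no contrast. As a description over the 17 lists, the 3 member sites whose scores were most like those of the Ptgs2 promoter were all at Ptges, at 22.1, 10.0 and 24.2 kb, with Spearman correlations of 0.846, 0.798 and 0.708. The lists share LPS times and depth, and no test was made of these values.

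**Figure D2:**
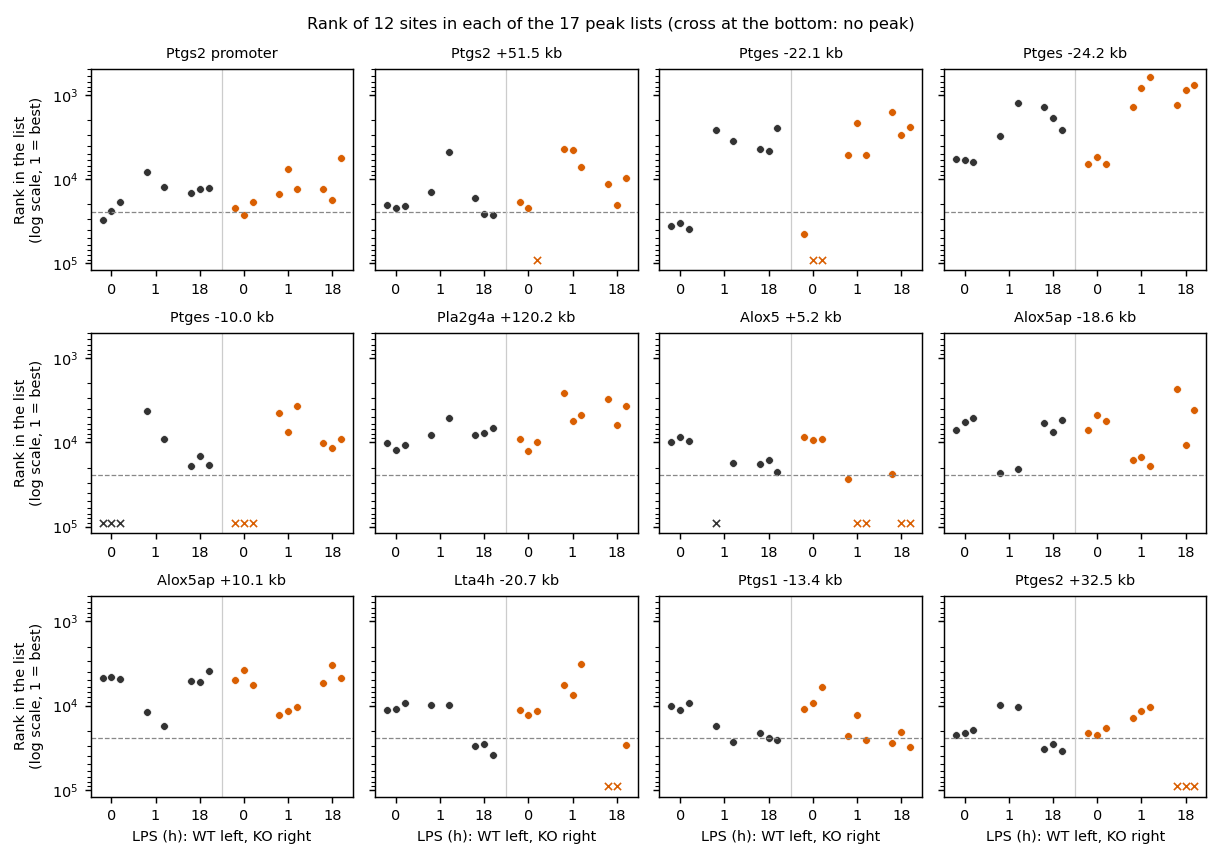
Rank of 12 sites in each list (y axis, log scale with the best rank at the top) by hours of LPS, with WT (dark) on the left and KO (orange) on the right of each panel. Each point is a list, crosses are lists with no peak, and the dashed line is rank 24389. The Ptges sites at 10.0 and 22.1 kb lie below the line or are absent at 0 h and lie above it in all 11 lists with LPS, and the 2 Alox5ap sites dip at 1 h alone.

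At Ptges2, a prostaglandin E synthase that is not classed as inducible, the promoter was among the best-ranked peaks of every list. It (chr2:32394760-32397184) ranked 1226, 899 and 753 in WT at 0 h, 3059 and 1111 at 1 h and 450, 951 and 649 at 18 h. In KO it ranked 842, 1193 and 1288 at 0 h, 1593, 1786 and 2129 at 1 h and 730, 458 and 478 at 18 h. From 1 h to 18 h it rose by 1.62 ± 0.343 (adjusted p = 0.00164), which was 1.53 and not called with peaks over 50% of the site (adjusted p = 0.414). Against 0 h it was -0.86 ± 0.343 at 1 h (adjusted p = 0.0718) and 0.77 ± 0.323 at 18 h (adjusted p = 0.0975), so neither was called. The site 32.5 kb downstream (chr2:32427760-32429073), inside the neighbour Slc25a25, ranked 22434, 21373 and 19271 in WT at 0 h, 9850 and 10331 at 1 h and 33101, 28851 and 34245 at 18 h. At 0 h the KO ranks were 20943, 22197 and 18588, followed by 13915, 11685 and 10322 at 1 h, with no peak in any list at 18 h. It was higher at 1 h than at either other time in every list. It rose by 0.92 ± 0.111 at 1 h (adjusted p = 8.59e-06) and fell by at least 1.16 ± 0.111 from 1 h to 18 h (adjusted p = 7.47e-07), since no list at 18 h held it among the kept peaks. Of the 11 sites in the Ptges2 window, 5 were promoters of neighbours, and in all 2 rose and 4 fell at 1 h, while 0 rose and 3 fell at 18 h.

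Alox5 had a single site that changed. The intron site 5.2 kb into the gene (chr6:116455638-116456397) ranked 9928, 8632 and 9623 in WT at 0 h, 17650 (no peak in 1 list) at 1 h and 18134, 16193 and 22303 at 18 h. Ranks in the KO lists were 8730, 9322 and 9065 at 0 h, 27184 (no peak in 2 lists) at 1 h and 23855 (no peak in 2 lists) at 18 h. All 6 lists at 0 h held it among their best 9928 peaks, and the best rank after LPS was 16193. It fell by 1.29 ± 0.130 at 1 h (adjusted p = 1.28e-06) and by 1.21 ± 0.123 at 18 h (adjusted p = 3.15e-06). Since 5 of the 11 LPS lists had no peak there and 1 had its peak beyond rank 24389, both values are lower bounds of the fall. No consensus site lay at the Alox5 promoter. With all deposited peaks counted, a promoter peak was found in 3 lists, WT 0 h replicates 2 and 3 and KO 0 h replicate 1, at ranks 60345, 65801 and 69538. These 3 lists had between 5.11 and 9.75 background reads per kb. Other lists as deep, such as WT 18 h replicate 1 with 8.38, held no promoter peak, and the part of depth in this was not tested.

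Alox5ap, the gene of the 5-lipoxygenase helper protein, had 3 sites that fell at 1 h and rose from 1 h to 18 h. The site 18.6 kb upstream (chr5:149245454-149246520) ranked 7056, 5825 and 5142 in WT at 0 h, 23185 and 20882 at 1 h and 5876, 7474 and 5368 at 18 h. The KO ranks there were 7183, 4734 and 5637 at 0 h, 16284, 14877 and 18911 at 1 h and 2311, 10733 and 4180 at 18 h. The 1 h lists stood behind all others in both genotypes. The site fell by 1.71 ± 0.295 at 1 h (adjusted p = 0.000335) and rose by 1.83 ± 0.295 from 1 h to 18 h (adjusted p = 0.000163). The intron site 10.1 kb into the gene (chr5:149274446-149275527) ranked 4704, 4631 and 4804 in WT at 0 h, 11828 and 17650 at 1 h and 5119, 5219 and 3900 at 18 h. In KO it ranked 4921, 3794 and 5637 at 0 h, 13132, 11685 and 10322 at 1 h and 5346, 3270 and 4715 at 18 h. It fell by 1.46 ± 0.208 (adjusted p = 4.86e-05) and rose by 1.52 ± 0.208 (adjusted p = 3.06e-05). An intron site at 20.2 kb did likewise, with -0.89 ± 0.191 at 1 h (adjusted p = 0.00206) and 1.05 ± 0.191 from 1 h to 18 h (adjusted p = 0.000458). At 18 h against 0 h none of the 3 was called. With peaks over 50% of the site the rise at 10.1 kb was 1.42 and its call was lost (adjusted p = 0.0775).

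The Alox5ap promoter (chr5:149264393-149265612) ranked 14925, 16656 and 15374 in WT at 0 h, 20457 and 28940 at 1 h and 23190, 15426 and 32438 at 18 h. At 0 h the KO ranks were 14589, 23586 and 11660, followed by 43133, 22863 and 33714 at 1 h and 24425 (no peak in 2 lists) at 18 h. It fell by 0.55 ± 0.159 at 1 h (adjusted p = 0.0155) and by 0.51 ± 0.150 at 18 h (adjusted p = 0.0201). At 1 h the WT lists stood behind all WT lists at 0 h and the KO lists overlapped. At 18 h the WT lists overlapped those at 0 h, and no KO list kept the promoter among its best 24389. The 1 h call was lost without WT 1 h replicate 3 and the 18 h call without WT 18 h replicate 1, WT 18 h replicate 3 or KO 0 h replicate 3. With log2 depth as a covariate the 1 h difference was larger, at -0.62, and was not called (adjusted p = 0.0536), and under the exact permutation test the 18 h call was lost (adjusted p = 0.0924). The site 29.5 kb upstream, at ranks from 8311 to 17011 in the 11 lists at 0 h and 1 h, fell by 0.99 ± 0.160 at 18 h against 0 h (adjusted p = 0.000221), and no KO list at 18 h held it. In contrast an intron site at 2.2 kb rose by 0.77 ± 0.264 at 1 h (adjusted p = 0.0365) and by 0.75 ± 0.249 at 18 h (adjusted p = 0.0373). Its calls were lost without any one of 8 and 11 lists, with adjusted p up to 0.120 and 0.0947, and with peaks over 50% of the site, where the differences were 0.77 and 0.54 (adjusted p = 0.255 and 0.470). A site 23.6 kb upstream was called up at 18 h over both genotypes, by 0.18 ± 0.0473 (adjusted p = 0.00907, limma), but its score was above 0 in WT alone. The exact permutation p was 0.1 (two-sided, unadjusted). The KO minus WT difference of the 18 h response was -0.37 ± 0.0946 there and was not called (adjusted p = 0.343, limma).

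Lta4h, the leukotriene A4 hydrolase, had an open promoter in all 17 lists and distal sites that moved in both directions. The site 20.7 kb upstream (chr10:93432005-93433352) ranked 11425, 10864 and 9456 in WT at 0 h, 9850 and 9881 at 1 h and 30566, 28851 and 38702 at 18 h. Ranks in the KO lists were 11182, 12838 and 11660 at 0 h, 5639, 7527 and 3191 at 1 h and 29265 (no peak in 2 lists) at 18 h. At 1 h the KO lists stood ahead of the KO lists at 0 h, and the WT lists overlapped. Each list at 0 h and 1 h held the site among the best 12838 peaks, and no list at 18 h held it among the best 24389. It is the single site of the 64 that was up at 1 h, by 0.65 ± 0.185 (adjusted p = 0.0139), and down at 18 h, by at least 1.12 ± 0.175 against 0 h (adjusted p = 0.000165). From 1 h to 18 h it fell by at least 1.78 ± 0.185 (adjusted p = 1.91e-06). With presence defined as peaks over 50% of the site, the difference at 1 h was -0.44 (adjusted p = 0.348), and the later differences were -0.79 against 0 h and -0.35 from 1 h, neither called (adjusted p = 0.116 and 0.553). The 1 h call was also lost under the exact permutation test (adjusted p = 0.0664), and the 18 h call against 0 h with the 10000 best peaks, where the difference was -0.013. The site 31.3 kb upstream (chr10:93421925-93423817) ranked 27728, 23153 and 27109 in WT at 0 h, 17414 and 22197 at 1 h and 18991, 18296 and 16064 at 18 h. The KO ranks there were 31829, 22197 and 24922 at 0 h, 23214, 22863 and 18911 at 1 h and 7299, 15965 and 13105 at 18 h. It rose by 0.74 ± 0.153 at 18 h (adjusted p = 0.00195). The promoter (chr10:93452603-93454751) ranked between 843 and 4839 in all lists and fell by 0.83 ± 0.293 at 18 h (adjusted p = 0.0488), and the call was lost without any one of 13 lists, with adjusted p up to 0.119, and with peaks over 50% of the site, where the difference was larger, at -1.98 (adjusted p = 0.152). The promoter of Hal, a neighbour 35.2 kb downstream of the start, rose by 1.11 ± 0.226 at 18 h (adjusted p = 0.00162), which was 0.86 and not called with peaks over 50% of the site (adjusted p = 0.137).

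**Figure D3:**
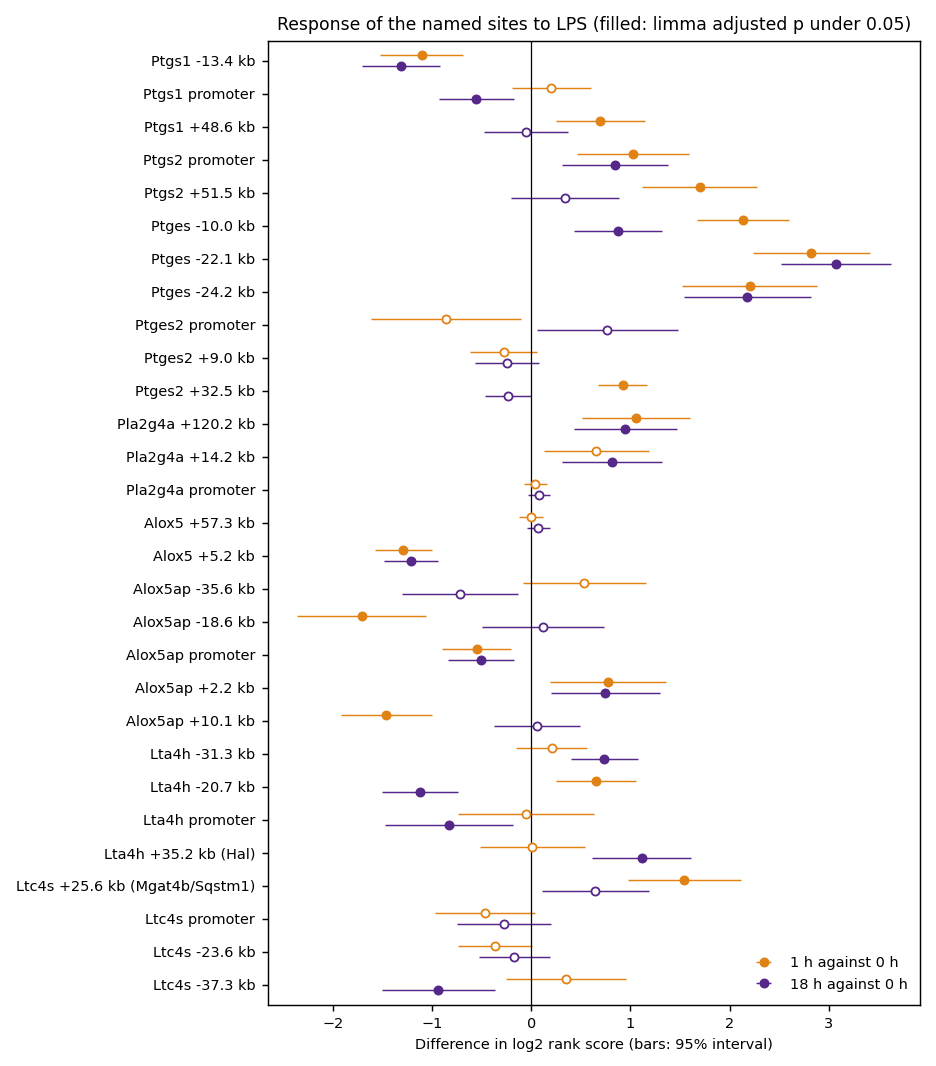
Difference in log2 rank score of the named sites (y axis) at 1 h (orange) and 18 h (purple) against 0 h, over both genotypes, with 95% intervals from the limma SE. Filled points have an adjusted p under 0.05. Both points of the 3 Ptges sites are filled and above 0, both of the Alox5 intron site are filled and below 0, and the Alox5ap sites at 18.6 and 10.1 kb are below 0 at 1 h alone.

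Ltc4s, which encodes leukotriene C4 synthase, had no call at the wide site that takes in its promoter, while sites around it rose or fell. This site (chr11:50235703-50239799), with its best summit 1.9 kb past the start, ranked 3414, 3542 and 3545 in WT at 0 h, 4926 and 5434 at 1 h and 4110, 3011 and 3992 at 18 h. In KO it ranked 3098, 2623 and 3596 at 0 h, 4813, 4085 and 3191 at 1 h and 4839, 3038 and 5355 at 18 h. The WT lists at 1 h stood behind all other WT lists, and the KO lists at 1 h overlapped those at 0 h. The differences of -0.47 ± 0.227 at 1 h (adjusted p = 0.139) and -0.27 ± 0.214 at 18 h (adjusted p = 0.395) were not called. The promoter peak itself, with a summit within 1 kb of a protein-coding start, was at rank 24389 or better in 4 of 6 lists at 0 h, with ranks of 20126 and 19511 in WT and 13993 and 16815 in KO. At 1 h it was so in 5 of 5 lists, with ranks of 9850 and 15060 in WT and 12442, 22863 and 18911 in KO. At 18 h it was so in 0 of 6, with ranks of 31106 and 26574 in WT and no such summit in the other lists. Each interval kept only its best summit, so a list without this summit may still hold a wide peak over the start. No test was made of this peak apart from the site. The site 5.5 kb upstream (chr11:50243762-50245036) ranked 19832, 19861 and 20919 in WT at 0 h, 36036 (no peak in 1 list) at 1 h and 27268, 27784 and 26574 at 18 h. At 0 h the KO ranks were 18252, 15343 and 11660, followed by 35268 (no peak in 2 lists) at 1 h and 31974 and 26000 (no peak in 1 list) at 18 h. It was among the best 24389 at 0 h in all 6 lists and at no later time, and fell by at least 0.49 ± 0.0955 at 1 h (adjusted p = 0.000869) and at least 0.49 ± 0.0900 at 18 h (adjusted p = 0.000664). A site 37.3 kb upstream, inside Maml1, fell by 0.94 ± 0.259 at 18 h (adjusted p = 0.0133), which was -0.19 and not called with the 10000 best peaks (adjusted p = 0.607). The largest rise at 1 h in the window belonged to the promoter site of the neighbours Mgat4b and Sqstm1, 25.6 kb downstream, with 1.54 ± 0.259 at 1 h (adjusted p = 0.000252), and the same difference was not called with peaks over 50% of the site (adjusted p = 0.0592).

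Of the 28 sites of the prostaglandin branch (Ptgs1, Ptgs2, Ptges and Ptges2), 8 rose and 5 fell at 1 h, and 6 rose and 7 fell at 18 h. Within it, of the 11 of Ptgs2 and Ptges together, 5 rose and 0 fell at 1 h, and 6 rose and 1 fell at 18 h. Of the 6 at Ptgs1, 1 rose and 1 fell at 1 h, and 0 rose and 3 fell at 18 h. Of the 30 in the leukotriene branch (Alox5, Alox5ap, Lta4h and Ltc4s), 5 rose and 6 fell at 1 h, and 5 rose and 7 fell at 18 h. Of all consensus sites, 13.8% rose and 14.3% fell at 1 h, and 10.8% rose and 12.8% fell at 18 h. No test was made between branches.

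Loss of Nur77 gave no call at any of the 64 sites. In KO against WT over the 3 times 0 were called, beside 0.404% of all sites, and the smallest adjusted p of the 64 was 0.177. The KO minus WT difference of the 1 h response was called at 0 of the 64, beside 0.0966% of all sites, and that of the 18 h response at 0, beside 0%. An unadjusted limma p under 0.05 was found at 8, 6 and 7 of the 64 sites (over all sites at 9.46%, 6.91% and 6.34%), and the exact permutation test gave 6, 2 and 2 (over all sites 6.96%, 3.58% and 3.59%). KO against WT ranged from -0.51 at the Alox5ap site 35.6 kb upstream to 0.69 ± 0.248 at the Ptges site 24.2 kb upstream, where the 95% interval of the difference ran from 0.14 to 1.23 and the exact permutation p was 0.0255 (two-sided). In that site the KO lists ranked ahead of all WT lists of the same time at 18 h, but not at 0 h or 1 h. At the Ptgs2 promoter the difference was 0.05 ± 0.205, with an interval from -0.40 to 0.51, and at the Ptges site 22.1 kb upstream it was 0.12 ± 0.214, with an interval from -0.35 to 0.59. The KO minus WT differences of the response ranged from -0.89 at the Ptgs1 promoter to 1.18 ± 0.619 at the Ptges site 24.2 kb upstream for 1 h, and from -1.09 in the Ltc4s window to 1.21 ± 0.383 for 18 h. The last was at the Ptgs1 site 48.6 kb downstream of the start (adjusted p = 0.582; exact permutation p = 0.015, unadjusted), where the mean score at 18 h was 0.0159 in WT and 0.945 in KO. The WT lists had a median depth of 5.62 background reads per kb and the KO lists 1.53, and the fit with log2 depth as a covariate also gave 0 calls in each of the 3 comparisons, beside 0.184%, 0.0234% and 0% of all sites.

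**Figure D4:**
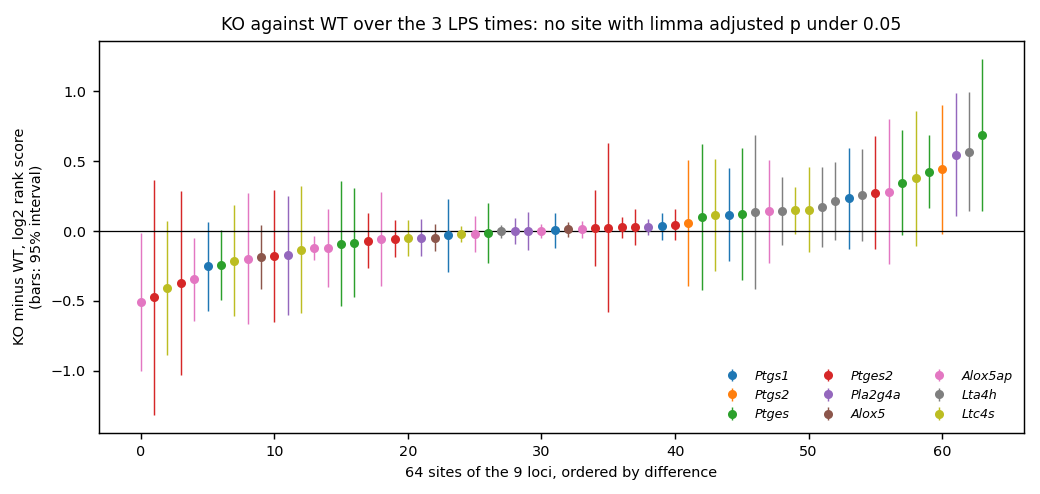
KO minus WT difference in log2 rank score over the 3 LPS times for the 64 sites, ordered by size (x axis) and coloured by gene, with 95% intervals from the limma SE. The values run from -0.51 to 0.69, and no site has an adjusted p under 0.05.

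Further genes of eicosanoid synthesis, inactivation, transport and response were looked at as a list of 37, of which 26 had 57 consensus sites at the promoter or in the gene body. Of these 57, 8 rose and 13 fell at 1 h, 2 rose and 8 fell at 18 h, and 14 rose and 10 fell from 1 h to 18 h, with median differences of -0.0889, -0.00673 and 0.0865. Beside them, 13.8% of all sites rose and 14.3% fell at 1 h, 10.8% and 12.8% did so at 18 h, and 13.7% and 15.2% from 1 h to 18 h. Tbxas1, the thromboxane A synthase gene, had 7 sites that fell and 2 that rose at 1 h. The largest fall was at a promoter 65.8 kb past its first start, -1.90 ± 0.272 at 1 h (adjusted p = 5.15e-05) and -0.89 ± 0.256 at 18 h (adjusted p = 0.0169). The promoter of Hpgds, the hematopoietic prostaglandin D synthase, fell by 1.04 ± 0.222 at 1 h (adjusted p = 0.00200) and regained 1.01 ± 0.222 by 18 h (adjusted p = 0.00226). Abcc4, an exporter of prostaglandins, had a site 70.7 kb into the gene that rose by at least 1.03 ± 0.128 at 1 h (adjusted p = 1.17e-05). It was among the kept peaks in 5 of 5 lists at 1 h and in 0 of 12 at the other times. Pla2g7, the gene of platelet-activating factor acetylhydrolase, had a site 5.8 kb into the gene that rose by 1.24 ± 0.163 at 18 h (adjusted p = 3.42e-05).

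A single site of the 57 was called for genotype, the promoter of Cysltr2, a receptor for the cysteinyl leukotrienes, and it is named here after its values were seen. Among all deposited peaks it (chr14:73049061-73049587) was present in 8 of 8 WT lists and in 0 of 9 KO lists. Its ranks in WT were 28911, 35165 and 31492 at 0 h, 14418 and 17650 at 1 h, and 25585, 20898 and 19109 at 18 h. The shallowest of the 17 lists, a WT list with 0.382 background reads per kb, held the peak, and the deepest KO list, with 7.65, did not. The part of depth in the presence of this peak was not tested. In the matched-number lists KO minus WT was -0.27 ± 0.0541 (adjusted p = 0.0353, limma; exact permutation p = 0.0200). Presence among all deposited peaks gave an exact permutation p of 0.00025 (two-sided, unadjusted), the smallest it can give, and an adjusted p of 0.949 over all sites. The limma call was lost without any one of 11 lists, with adjusted p up to 0.101, with log2 depth as a covariate (adjusted p = 0.0595), with peaks over 50% of the site (adjusted p = 0.241) and under the exact permutation test on scores (adjusted p = 0.523).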

How the data were processed

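ATAC-seq peaks of 17 BMDM samples in 6 groups were used. Per the labels and the study's methods, reads were trimmed with cutadapt 2.6 and mapped to mm10 with the snakeATAC pipeline at default settings. Names inside the deposited lists record a mapping quality minimum of 20, removal of mitochondrial reads and duplicates, and peak calling at a q-value of 0.001, with 1 list per sample. The peak caller is not given in the sources used here. DiffBind 3.0.15 is also named. It needs read counts and was not refitted here. The deposited lists give each peak a fold enrichment (ratio), and −log10 p-values and q-values, all made by the authors. The comparisons used only the order of the −log10 p-values inside a list. Depth was estimated as background reads per kb, from 0.382 to 9.75, from the step between fold values, assuming that a fold is reads plus 1 over background plus 1. Shallow lists can miss weak peaks.

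Ranks were computed with Python 3.11.15 and pandas 2.3.3 on the best 24389 peaks of each list. Tied peaks shared their mean rank, and ties across the last place were broken at random with a fixed seed. Where a list gave an interval several summits, only the entry of smallest p-value was kept. Peaks overlapping by at least 1 bp were merged into sites. Group means were compared with limma 3.58.1 in R 4.3.3 (trend, robust), with Benjamini-Hochberg adjustment over 34158 sites, and two-sided exact permutation tests within strata were run beside it. The fit was tested on simulated data. GENCODE gene models were used for positions. The sites named were each gene's promoter, its 2 other sites of best mean rank that are no promoter of another gene, and in each comparison the called sites, or the 6 of largest difference. Other sites were named after their values were seen. The members and lists were chosen with earlier results of these data known. The labels do not say that replicates came from separate animals, so p-values measure the spread between these samples. Alternatives were other numbers of kept peaks, overlap rules, tests, windows, depth as a covariate, a replicate block and leaving out each list. In each pair of lists at most 0.196% of intervals were identical. A marker gene of another cell type is not reported here.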

Additional observations from a re-analysis of the deposited data

Results flagged for a closer look

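Some deposited peaks near the 9 genes lay outside the consensus sites, because they were not among the best 24389 of at least 2 lists. They numbered 347 in 90 regions, and 6 of the 47 regions found in at least 3 lists had no peak in any list at 0 h. At Ptges2 such a region 7.9 kb upstream had a peak in 8 of the 11 lists with LPS. At Pla2g4a the region 1.8 kb upstream had one in 5 lists and the region 98.3 kb into the gene in 4. A region 9.6 kb past the start of Ptgs2 had a peak in 4 lists. At Ptges the regions 3.7 kb and 5.8 kb past the protein-coding start had a peak in 3 lists each. These are weak peaks and no test was made of them.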

How the results depend on the processing

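Main counts of called sites were, of 64, 25 at 1 h, 28 at 18 h and 19 from 1 h to 18 h, with 46 calls at the named sites. With the 10000 best peaks, which leave 30 sites, they were 14 (46.7%, beside 24.1% of all sites), 6 (20%, beside 15.4%) and 9 (30%, beside 24.6%), with 25 calls at named sites. With peaks that cover at least 50% of a site they were 13 (20.3%, beside 20.6%), 12 (18.8%, beside 12.4%) and 6 (9.38%, beside 9.01%), with 19 calls at named sites. In that setting KO against WT gave 1 call (1.56%, beside 2.47% of all sites). The KO minus WT difference of the 18 h response gave 2 (3.12%, beside 1.79%). The exact permutation test gave 23 at 1 h (35.9%, beside 22.6% of all sites), 15 at 18 h (23.4%, beside 14.8%) and 12 from 1 h to 18 h (18.8%, beside 13.3%). On presence alone it gave 0 of all 34158 sites in every comparison. The 10 kb window, which holds 30 sites, gave 11 (36.7%), 15 (50%) and 7 (23.3%), beside 28.1%, 23.6% and 28.9% of all sites. With all deposited peaks, which make 122 sites, KO against WT gave 1 call (0.82%, beside 0.635% of all sites). The 10000 best peaks and the 10 kb window leave fewer sites by construction, and otherwise the cause of these shifts was not tested.

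Leaving out each list gave 21 to 29 calls at 1 h, beside 23% to 34.2% of all sites. It gave 20 to 30 at 18 h (beside 19.4% to 27.4%), 17 to 23 from 1 h to 18 h (beside 24.1% to 35.1%) and 41 to 45 at named sites. KO against WT ranged from 0 to 1. The 1 call (1.56%) came without WT 1 h replicate 3 (beside 3.34% of all sites), KO 18 h replicate 1 (beside 0.694%) or KO 18 h replicate 2 (beside 0.641%). The KO minus WT differences of the 1 h and 18 h responses each ranged from 0 to 2. The 2 calls for 1 h came without WT 1 h replicate 3 (3.12%, beside 3.54% of all sites). Those for 18 h came without KO 18 h replicate 2 (3.12%, beside 0.471%). Of the 46 calls, 37 held in every such fit. Over every setting tried 5 held, with the exact permutation test on presence counted wherever presence differed. The replicate block, fitted without the list labelled replicate 1-2, gave 20 (31.2%, beside 20.7% of all sites), 26 (40.6%, beside 23.2%) and 18 (28.1%, beside 22%), and 41 at named sites. Not called under it (limma) were the Ptgs2 promoter at 1 h (adjusted p = 0.0907), the Lta4h site 20.7 kb upstream at 1 h (adjusted p = 0.0823), the Alox5ap site at 2.2 kb at 1 h and 18 h (adjusted p = 0.0960 and 0.0606), the Alox5ap site 35.6 kb upstream from 1 h to 18 h (adjusted p = 0.0515) and the Cysltr2 promoter (adjusted p = 0.0808). Lists of the same number correlated between -0.2255 and 0.2058, so the numbers were not taken to pair the samples. The 1 h difference of the Lta4h site 20.7 kb upstream turned to -0.44 with the 50% cover, and the difference from 1 h to 18 h of the Ptgs1 site 48.6 kb downstream to 0.0071 with the 10000 best peaks.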

Other observations

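With all deposited peaks counted, 9 of the 34158 sites divided the genotypes fully, and they were named after their values were seen. Of these, 5 were held by every WT list and no KO list, among them the promoters of Cysltr2 and of Trim12a, and 4 were held by every KO list and no WT list. On chromosome 14 there were 4 of the 9, and this chromosome holds 3.56% of all sites. Chromosome 3 had 3 of the 9 and holds 4.69%.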
